A study of Zea mays with 12 samples.

Results

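Of the 34423 genes listed in at least 1 library, 186 (0.54%) were raised by drought in ear, ear leaf and kernel alike. A gene was counted as raised in an organ when its lower drought value was at least 5 CPM (the expected count divided by the sum of expected counts of the library, times 1000000) and at least 2 times its higher control value. The condition was met by 923 genes in the ear alone (2.68%), by 2399 in the ear leaf (6.97%) and by 2279 in the kernel (6.62%), and the 186 genes that met it in all 3 organs are called members in the following. Since the drought and control values of each organ chose the members, their folds are given as a description, without a test. Of the members, 182 were listed in all 12 libraries.

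The plants were of the maize inbred line B104, grown in the field. For drought, the soil was maintained at a reduced water content over 5 days before sampling. The upper ear was taken at V9, when it is an inflorescence meristem that lays down spikelets, and the ear leaf and the kernel were taken at 5 days after pollination. Control plants were kept well watered throughout. Each of the 6 groups (drought ear, control ear, drought ear leaf, control ear leaf, drought kernel and control kernel) had 2 libraries, and each library held organs from 4 plants, so that every spread below is that between 2 pools. The ear was sampled at an earlier stage than the ear leaf and the kernel, and organ and stage cannot be told apart.

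Abscisic acid (ABA) is the hormone through which plants respond to a shortage of water. It is cut from carotenoids by 9-cis-epoxycarotenoid dioxygenase, binds receptors of the PYR/PYL family and with them blocks type 2C protein phosphatases (PP2C), which frees SnRK2 kinases to activate bZIP factors at ABA-responsive promoters. Genes of late embryogenesis abundant (LEA) proteins and dehydrins, which protect membranes and proteins in drying cells, are classical targets, and PP2C genes are themselves induced by ABA. Chaperones hold unfolding proteins in solution, and raffinose family sugars, trehalose and proline serve as osmolytes or protectants. In bulk tissue, fewer cells of a type and less RNA per cell cannot be told apart.

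Rounded counts summed to between 3429339 and 5452714 per library, with the smallest sum in control ear leaf replicate 2, and 3 counts, the floor used for lower bounds, stood for 0.550 to 0.875 CPM. The organ labels were checked by genes that mark each organ. The summed level of 5 leaf photosynthesis genes (pep1, pdk1, me3 and 2 Rubisco small subunit genes) was 9421 and 9336 CPM in the drought ear leaf and 41406 and 41071 CPM in the control ear leaf, against at most 263 CPM in any library of the ear or the kernel. The summed level of 5 meristem genes, among them kn1, was 419 and 425 CPM in the drought ear and 491 and 485 CPM in the control ear, against at most 90.8 CPM elsewhere. Most of the sum in the ear was kn1, at 258 and 264 CPM under drought and 318 and 319 CPM in controls. Of the 5, fea2 did not set the ear apart from the kernel, with 59.6 and 56.3 CPM in the drought ear. It had 55.4 CPM in both drought kernel libraries. ra1 stayed at or below 4.91 CPM, and ub3 rose under drought while kn1 and tsh4 fell. The summed level of 4 endosperm genes was 1833 and 1811 CPM in the drought kernel and 561 and 583 CPM in the control kernel, but also 775 and 758 CPM in the control ear, nearly all of it sh1, so that the sum does not set the kernel apart. Of the 4, mrp1 was not listed in any library, bap2 stayed at or below 3.89 CPM, and sh1 was high under drought in the ear leaf too (1566 and 1564 CPM in the drought ear leaf, 124 and 119 CPM in the control ear leaf). The marker nearly confined to the kernel was mn1, the cell wall invertase of the endosperm, at 18.1 and 14.5 CPM in the drought kernel and 94.8 and 79.7 CPM in the control kernel, and at most 1.35 CPM in other organs. The 3 lists and mn1 moved with drought in their organs, and their part in the values of the members was not tested.

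The members together took 8.47% and 8.51% of the counts in the drought kernel libraries, against 0.709% and 0.651% in the control kernel libraries. In the ear leaf they took 5.02% and 5.03% under drought and 0.802% and 0.803% in controls. In the ear the shares were 1.52% and 1.51% under drought and 0.365% and 0.377% in controls. The kernel thus held both the largest drought share and the largest difference, and the control shares of the ear leaf and the kernel were alike.

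**Figure D1:**
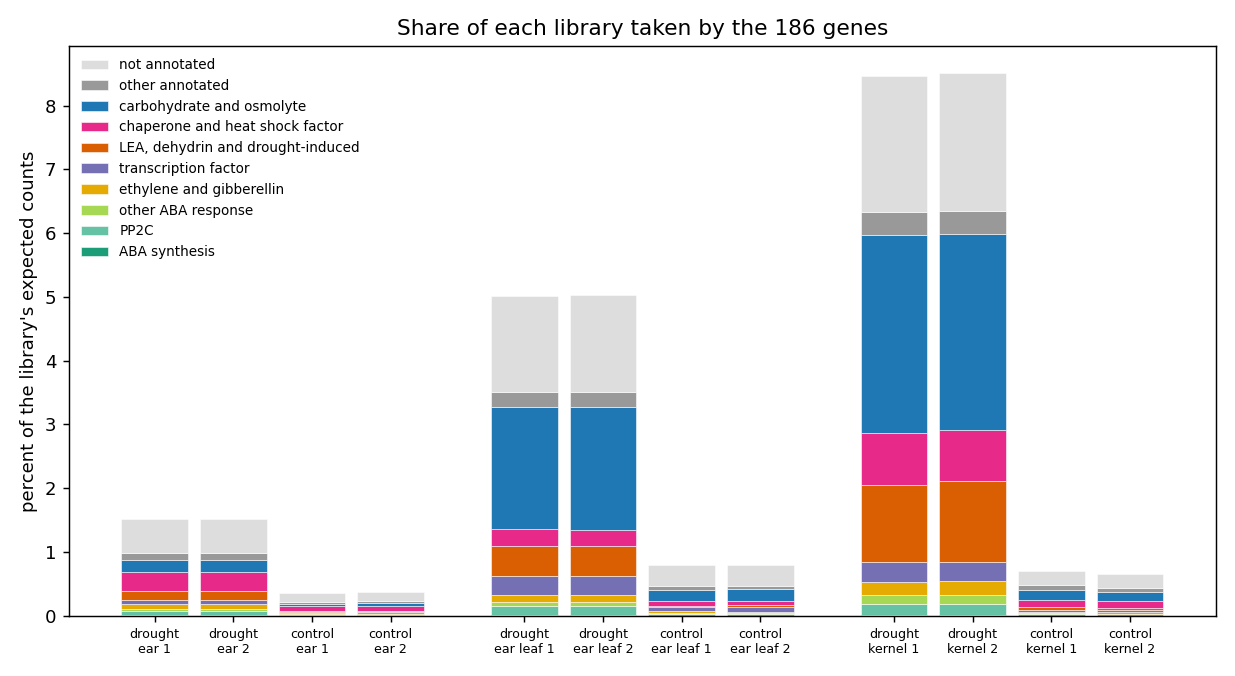
Share of each of the 12 libraries taken by the 186 members (percent of the library's expected counts), with the parts of each bar standing for the roles of the genes. The drought kernel bars reach 8.47% and 8.51%, the drought ear leaf bars 5.02% and 5.03%, the drought ear bars 1.52% and 1.51%, and all control bars stay at or below 0.803%.

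The size of the drought effect was greatest in the kernel. The median fold of mean drought CPM over mean control CPM was 9.20 in the kernel (log2 3.20, quartiles 2.13 and 4.47), 4.97 in the ear leaf (log2 2.31, quartiles 1.65 and 3.09) and 4.70 in the ear (log2 2.23, quartiles 1.54 and 3.18). The largest fold of a member lay in the kernel for 115 members, in the ear leaf for 38 and in the ear for 33. A fold of at least 8 was reached by 101 members in the kernel, 51 in the ear leaf and 54 in the ear, and by 23 in every organ. With TMM scaling, which sets the bulk of genes of all libraries level, the medians were log2 3.40 in the kernel, 1.98 in the ear leaf and 2.14 in the ear, and the largest fold lay in the kernel for 141 members. By library sums, the median of all genes tested was itself shifted by 0.05 in ears, 0.28 in ear leaves and -0.20 in kernels.

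The ear leaf and the ear, which had nearly the same median fold, reached it from different levels. The median control level of the members was 12.6 CPM in the kernel, 15.4 CPM in the ear leaf and 5.68 CPM in the ear, and the median drought level was 133 CPM in the kernel, 81.2 CPM in the ear leaf and 34.6 CPM in the ear. The control level was lowest in the ear for 110 members, in the ear leaf for 58 and in the kernel for 18, and highest in the ear leaf for 83, in the kernel for 77 and in the ear for 26. The drought level was highest in the kernel for 128 members, in the ear leaf for 53 and in the ear for 5. Of all members, 64 had their largest fold in the organ with their lowest control level, and 103 had it in the organ with their highest drought level. Over the 3 organs, the fold of a member spanned a median of 1.61 on the log2 scale, its control level 2.32 and its drought level 2.63.

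**Figure D2:**
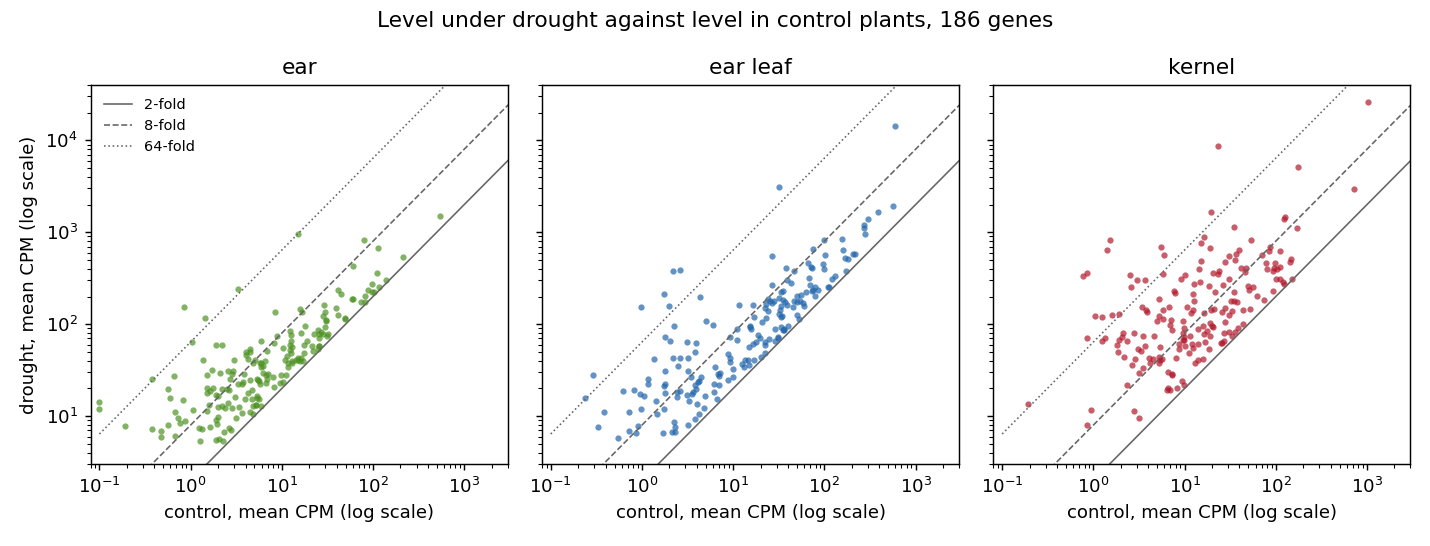
Mean drought CPM against mean control CPM of each member (both axes logarithmic, 1 point per gene, 186 points per panel), with lines at 2-fold, 8-fold and 64-fold; 2 members with a mean control level under 0.1 CPM in the ear are drawn at 0.1. The points of the kernel lie higher above the 2-fold line (median fold 9.20) than those of the ear leaf (4.97) and the ear (4.70), and the points of the ear lie further to the left (median control level 5.68 CPM).

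At the median, replicates differed little beside these sizes. The ratio of the higher to the lower replicate had a median over members of 1.08 in the drought ear and 1.14 in the control ear. It was 1.05 under drought and 1.12 in controls for the ear leaf. For the kernel it was 1.04 under drought and 1.21 in controls. Drought values of 0, 6 and 0 members and control values of 30, 29 and 32 members differed by more than 1.5 times between replicates of ear, ear leaf and kernel. The largest ratio between control replicates was 4.76 in ears, 3.65 in ear leaves and 3.33 in kernels. For 74 members the lower drought value was under 2.5 times the higher control value in some organ. The control level was within 3 counts in both libraries for 7 members in ears, 7 in ear leaves and 1 in kernels (10 members in some organ). Their folds were computed against 3 counts per library and are lower bounds. Near the threshold, gln2 (GRMZM2G024104, a glutamine synthetase gene), GRMZM5G879570 and GRMZM2G380319 were just inside, with a lower drought value 2.00, 2.00 and 2.01 times the higher control value in the kernel, the kernel and the ear. GRMZM5G858887, GRMZM2G125747 and GRMZM2G134248 were just outside, at 1.99 times in the ear leaf, the ear leaf and the ear.

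Whether the drought effect of a gene differed between organs was tested as an interaction in an edgeR quasi-likelihood model of all 12 libraries and 26090 genes, all members included, with Benjamini-Hochberg adjustment and a threshold of 0.05. The drought and control values that chose the members also enter this test. The members are raised in each organ by the rule, while the tested genes go both ways, so that the shares over all genes are no independent measure for the members' counts or adjusted p-values. The rule set the same lower limit in each organ and did not compare organs. The effect was larger in kernels than in ear leaves for 128 members and smaller for 17, while 25.5% of all tested genes were called in the first direction and 20.3% in the second. It was larger in kernels than in ears for 109 members and smaller for 11, against 18.9% and 20.3% of all tested genes. Between the ear leaf and the ear the calls went both ways, with 48 members larger in the ear leaf and 56 smaller, against 16.2% and 19.7% of all tested genes. By library size without TMM factors, the counts were 94 and 31 for the kernel against the ear leaf and 60 and 43 for the ear leaf against the ear. The 11 members with a smaller effect in kernels than in ears were 6 without drought ear replicate 1 and 7 without control ear replicate 1 or without drought kernel replicate 1.

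**Figure D3:**
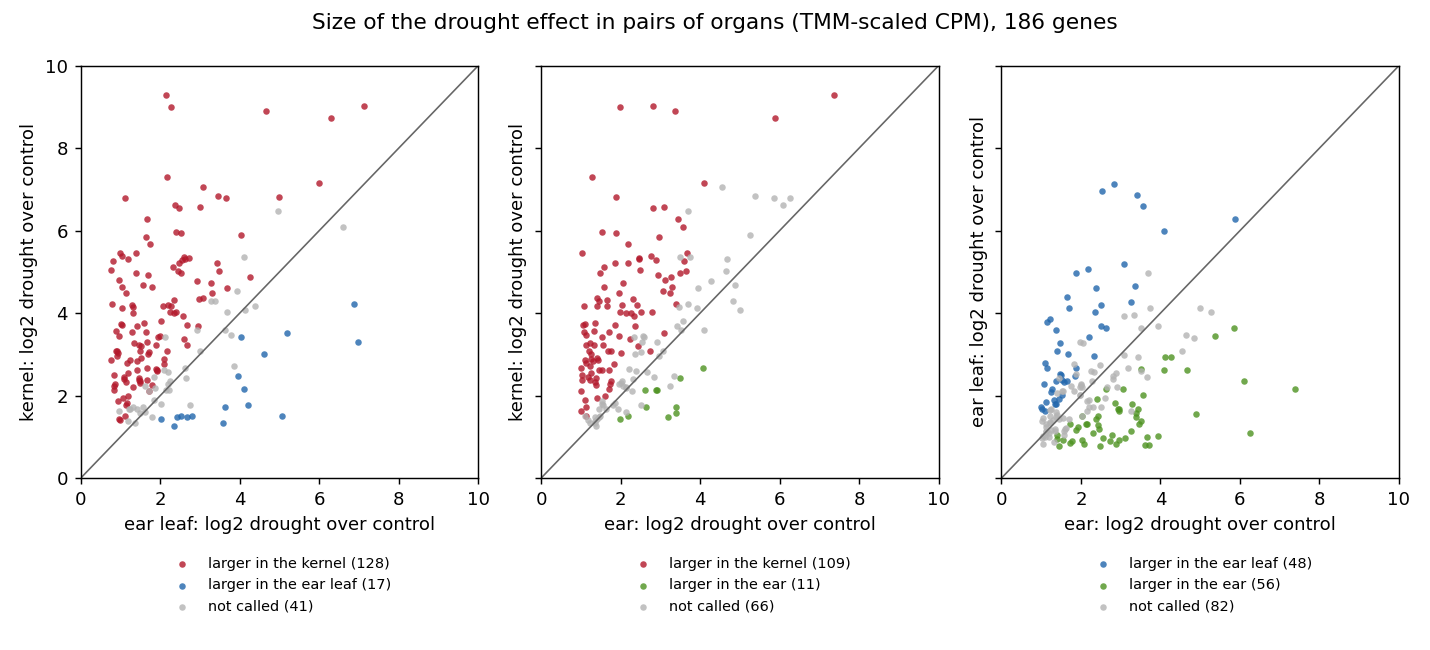
Drought effect of each member (log2 of TMM-scaled drought over control CPM) in the kernel against the ear leaf, the kernel against the ear, and the ear leaf against the ear, with the line of equal effect; coloured points passed the interaction test at an adjusted p under 0.05. Most coloured points of the first 2 panels lie above the line (128 above and 17 below, 109 above and 11 below), and in the third they lie on both sides (48 above, 56 below).

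Members with a large effect in 1 organ did not always have one in another. Spearman's rho of the log2 folds across the 186 members was 0.48 for kernel and ear, 0.31 for kernel and ear leaf and 0.32 for ear leaf and ear. The control levels followed each other more closely, with rho of 0.79 for kernel and ear, 0.56 for kernel and ear leaf and 0.47 for ear leaf and ear. Genes are not independent replicates, the folds of each organ were cut off by the rule at 2, and these values are a description.

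The level in watered plants differed between organs for many members. A call here needed an adjusted p below 0.001 and a log2 difference of 1 or more in size. The control ear leaf was higher than the control ear for 102 members and lower for 16, against 26.1% and 22.5% of all tested genes. The control kernel was higher than the control ear for 72 members and lower for 4, against 14.6% and 9.36%. The control kernel was higher than the control ear leaf for 34 members and lower for 80, against 21.8% and 23.1%. The comparisons with the ear leaf depended on the scaling. By library size alone, which shifts the median of all tested genes by 0.86 between the control kernel and the control ear leaf and by -0.85 between the control ear leaf and the control ear, the counts were 56 and 53 for the kernel against the ear leaf and 79 and 36 for the ear leaf against the ear. Without control ear leaf replicate 1, the members higher in the control kernel than in the control ear leaf were 22, and those lower in the control ear leaf than in the control ear were 10.

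The members were grouped by role from the annotation of their best Arabidopsis hit in the tables of the study, which gave 96 of them a role or description and left 90 without one. The roles in what follows are therefore known from Arabidopsis unless a maize gene name is given. An exception is GRMZM2G031033, which was placed among the LEA, dehydrin and drought-induced genes although its best hit carries no description. Of 112 measured genes in a table of key genes for the 3 organs, a selection from a larger common set, 84 were members. That table was chosen by the study on these libraries and is not independent evidence.

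**Figure D4:**
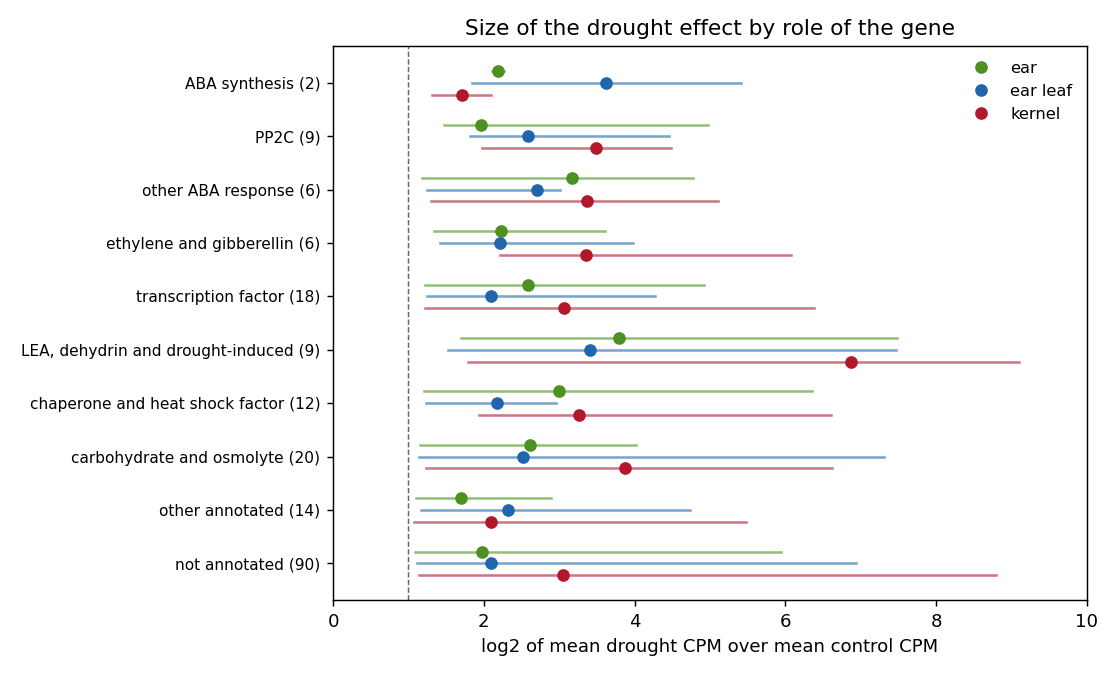
Log2 of mean drought CPM over mean control CPM by role (number of members in parentheses) in ear, ear leaf and kernel; points are medians, lines run from the lowest to the highest member, and the dashed line marks the 2-fold limit. The LEA, dehydrin and drought-induced genes have the highest medians in the kernel (log2 6.87) and the ear (log2 3.79), and the ABA synthesis genes in the ear leaf (log2 3.62).

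ABA synthesis was represented by 2 members with unlike patterns. vp14 (GRMZM2G014392), the maize 9-cis-epoxycarotenoid dioxygenase that makes the committed step to ABA, had 27.1 and 21.6 CPM in the drought ear against 5.75 and 5.52 CPM in the control ear. It had 22.5 and 21.7 CPM in the drought ear leaf against 5.24 and 7.14 CPM in the control ear leaf, and 62.6 and 58.5 CPM in the drought kernel against 14.5 and 13.8 CPM in the control kernel. Its folds were 4.32 in ears, 3.57 in ear leaves and 4.28 in kernels. With TMM scaling its effect was larger in kernels than in ear leaves by 0.76 (SE 0.26, edgeR adjusted p = 0.021). This difference depends on the scaling. The median of all tested genes in this comparison was -0.48 by library size and 0.06 with TMM. It was not among the differences checked under other settings. The hit of a beta-carotene hydroxylase (GRMZM2G382534), an enzyme upstream in the carotenoid pathway, had 97.8 and 92.3 CPM in the drought ear leaf against 3.07 and 1.41 CPM in the control ear leaf, and 62.0 and 62.7 CPM in the drought kernel against 25.6 and 24.5 CPM in the control kernel. Its effect was smaller in kernels than in ear leaves by 3.40 on the log2 scale (SE 0.33, edgeR adjusted p = 3.6e-11).

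The 9 PP2C members, the negative regulators of the ABA pathway, had median folds of log2 3.49 in the kernel, 2.59 in the ear leaf and 1.96 in the ear. PP2C4 (GRMZM2G177386, a hit of HAB1) followed this order, with 582 and 576 CPM in the drought kernel against 41.9 and 30.6 CPM in the control kernel. It had 426 and 411 CPM in the drought ear leaf against 66.5 and 77.3 CPM in the control ear leaf, and 129 and 118 CPM in the drought ear against 31.4 and 24.9 CPM in the control ear. PP2C12 (GRMZM5G818101), also a hit of HAB1, did not. It had 108 and 110 CPM in the drought ear leaf against 4.40 and 5.54 CPM in the control ear leaf, but a fold of 3.93 in the kernel and 3.49 in the ear, where its control level was higher (22.7 and 15.0 CPM in the control kernel, 27.4 and 22.4 CPM in the control ear). PP2C13 (GRMZM2G159811, a hit of AHG1, an ABA regulator of germination) was the opposite case: it had 59.8 and 60.0 CPM in the drought ear against 2.26 and 1.53 CPM in the control ear. It had 216 and 199 CPM in the drought ear leaf against 52.7 and 58.9 CPM in the control ear leaf. Reads shared between related PP2C genes were divided between them in the expected counts, so that values of close copies are uncertain.

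Among the whole set of genes with a PP2C name in the RefSeq table, 23 were measured and 7 were members, against 0.54% of all genes. Of the 23, 9 were called higher in the ear, 8 higher and 1 lower in the ear leaf, and 13 higher and 2 lower in the kernel (edgeR, adjusted p below 0.001 and log2 fold change of 1 or more in size), where 3.94%, 7.13% and 13.6% of all tested genes were called higher. None of 10 measured genes named as PYL receptors and none of 8 named as SnRK kinases was a member. With a share of 0.54% over all genes, lists this small without a member say little about these families. Of the 8 PYL genes tested, 2 were called higher and 1 lower in the ear leaf and likewise in the kernel. Of the SnRK genes so named, 2 were called higher and 2 lower in the kernel, 1 lower in the ear and 1 lower in the ear leaf, where 13.5%, 3.28% and 9.19% of all tested genes were called lower. Both lists go by name and miss genes. The study reports the SnRK2 genes GRMZM2G110922 and GRMZM2G000278 and the receptor genes GRMZM2G112538 and GRMZM2G112488 as raised in the ear leaf, and the lists hold none of them. Among downstream genes, the hit of the bZIP factor ABF2 (GRMZM2G479760) had 17.4 and 16.0 CPM in the drought ear against 2.08 and 1.92 CPM in the control ear. It had 88.0 and 85.4 CPM in the drought ear leaf against 35.8 and 37.0 CPM in the control ear leaf, a higher start and a smaller fold (2.38 against 8.37). The hit of the F-box protein EDL3 (GRMZM2G073324) had one of the largest negative differences between the kernel and the ear (-1.69, SE 0.34, edgeR adjusted p = 2.0e-04), with 19.9 and 20.4 CPM in the drought kernel against 9.66 and 6.77 CPM in the control kernel, and 41.5 and 42.3 CPM in the drought ear against 5.80 and 2.80 CPM in the control ear.

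The 9 LEA, dehydrin and drought-induced members had median folds of log2 6.87 in the kernel, 3.41 in the ear leaf and 3.79 in the ear. Their median control level was the lowest of the roles in the ear (1.53 CPM) and the kernel (5.52 CPM), and was 4.27 CPM in the ear leaf. dhn1 (GRMZM2G079440), the maize dehydrin of the RAB18 type, had 8458 and 8824 CPM in the drought kernel against 23.8 and 22.6 CPM in the control kernel. It had 3131 and 3145 CPM in the drought ear leaf against 26.7 and 36.9 CPM in the control ear leaf, and 938 and 954 CPM in the drought ear against 14.9 and 15.1 CPM in the control ear. All drought values lay far above all control values. Its control level stayed between 14.9 and 36.9 CPM over the organs, while its fold was 372 in the kernel, 98.8 in the ear leaf and 62.9 in the ear. MGL3 (GRMZM2G096475), a LEA protein gene, had the same order, with folds of 125, 80.4 and 18.4.

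Other genes of this role were uneven. GRMZM2G031033, whose best hit carries no description, had 822 and 845 CPM in the drought kernel against 1.33 and 1.71 CPM in the control kernel, and 148 and 156 CPM in the drought ear against 0.943 and 0.767 CPM in the control ear. In the ear leaf it had only 23.3 and 24.4 CPM under drought against 1.84 and 6.71 CPM in controls, so that its effect was larger in kernels than in ear leaves by 6.95 (SE 0.46, edgeR adjusted p = 3.6e-12), the greatest such difference among the members. GRMZM2G179462, a member of the low temperature and salt responsive (RCI2-like) family of small membrane proteins, had the reverse gap in the ear: 10.6 and 12.3 CPM in the drought ear against 2.26 and 0.767 CPM in the control ear. It had 389 and 378 CPM in the drought ear leaf against 2.02 and 2.33 CPM in the control ear leaf and 633 and 665 CPM in the drought kernel against 1.71 and 1.14 CPM in the control kernel. Its control levels were alike in the 3 organs. The effect was larger in kernels than in ears by 6.21 (SE 0.47, edgeR adjusted p = 7.3e-10) and in the ear leaf than in the ear by 4.34 (SE 0.44, edgeR adjusted p = 9.6e-08). The control levels of both genes rest on 4 to 23 counts per library.

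**Figure D5:**
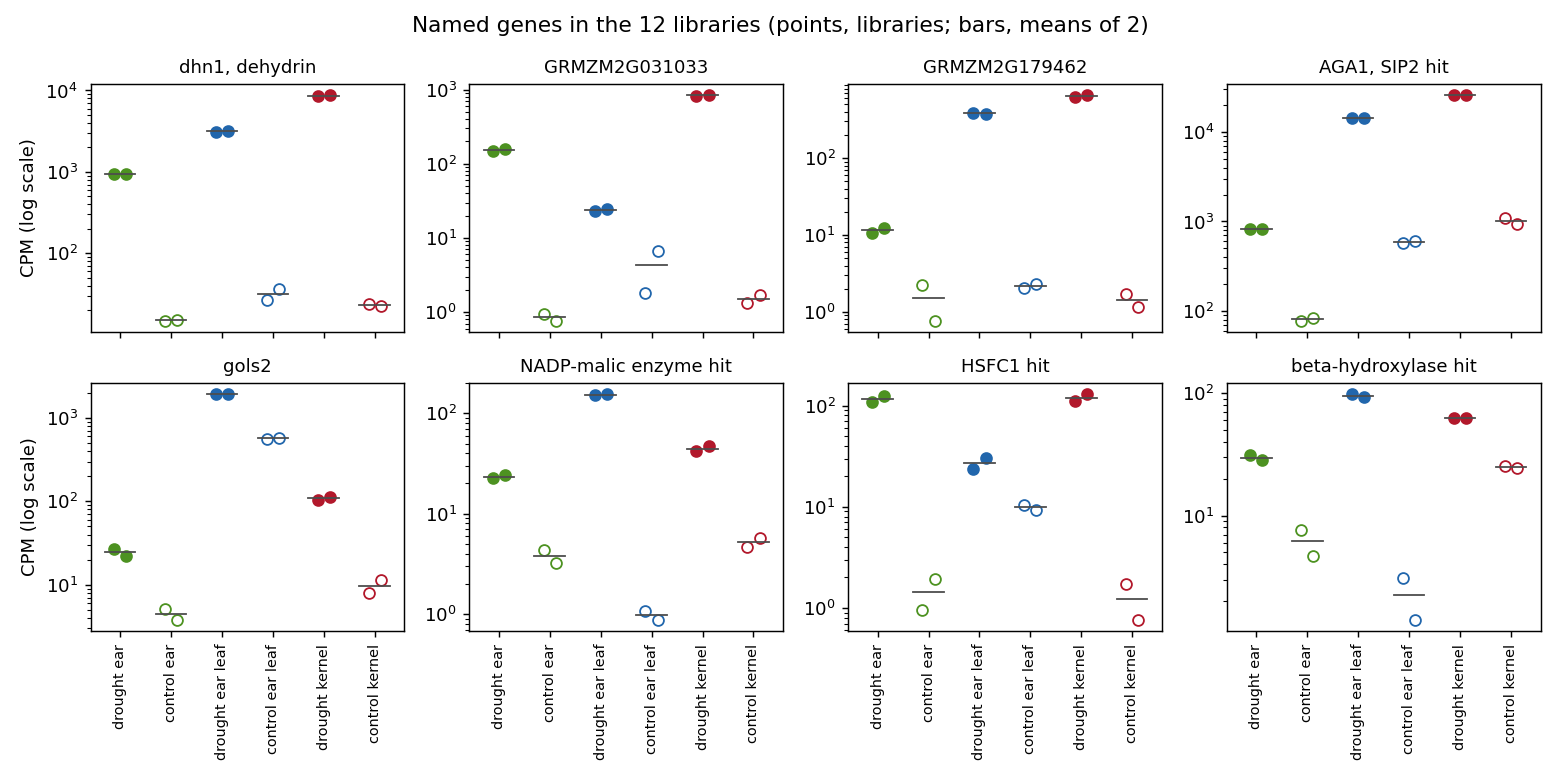
Level of 8 members in every library (CPM, logarithmic axes; filled points, drought; open points, control; bars, means of 2 libraries). dhn1 starts from 14.9 to 36.9 CPM in all control libraries and ends at 938 to 8824 CPM, whereas gols2 starts from 562 and 571 CPM in the control ear leaf and from 3.79 to 11.3 CPM in the control ear and kernel.

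The chaperones and heat shock factors (12 members) had median folds of log2 3.27 in the kernel, 2.17 in the ear leaf and 2.99 in the ear. For 10 of them the effect was larger in kernels than in ear leaves by the interaction test, as it was for 128 of all 186 members and 25.5% of all tested genes. The hit of HSC70-1 (GRMZM2G366532), a cytosolic HSP70, had 1642 and 1666 CPM in the drought kernel against 20.8 and 17.7 CPM in the control kernel. It had 284 and 277 CPM in the drought ear leaf against 42.4 and 44.1 CPM in the control ear leaf, and 250.1 and 237 CPM in the drought ear against 3.22 and 3.47 CPM in the control ear. The hit of the heat shock factor HSFC1 (GRMZM2G105348) had 109 and 124 CPM in the drought ear against 0.943 and 1.92 CPM in the control ear, and 23.5 and 30.4 CPM in the drought ear leaf against 10.5 and 9.33 CPM in the control ear leaf. In both genes the ear leaf had the highest control level and the smallest fold. The HSFC1 hit differed between the ear leaf and the ear by -5.15 (SE 0.45, edgeR adjusted p = 8.2e-12). Another HSP70 gene (GRMZM2G310431) was already high in controls (736 and 703 CPM in the control kernel, 549 and 541 CPM in the control ear) and had folds of 4.15 in the kernel and 2.76 in the ear. Unlike the other 2, it had its lowest control level (282 and 268 CPM) in the ear leaf, and by library sums also its largest fold (4.39). With TMM scaling its log2 effect was 2.25 in the kernel, 1.79 in the ear leaf and 1.37 in the ear. The organ of its largest fold thus depends on the scaling. Of the 16 measured genes with a heat shock protein name in the RefSeq table, 3 were members, against 0.54% of all genes. In all, 10 were called higher in ears, 2 in ear leaves and 9 in kernels, and 1 was called lower in kernels, against 3.94%, 7.13%, 13.6% and 13.5% of all tested genes.

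The 18 transcription factors had the lowest control levels in the ear (median 3.38 CPM, against 27.2 CPM in the ear leaf and 12.5 CPM in the kernel), and their control level was highest in the ear leaf for 12 of them. GRMZM2G014653, a NAC factor and hit of ATAF1, had 524 and 528 CPM in the drought ear leaf against 169 and 171 CPM in the control ear leaf, and 383 and 378 CPM in the drought kernel against 25.5 and 22.0 CPM in the control kernel. Its drought ear level (35.5 and 33.2 CPM) stayed below the control ear leaf. GRMZM2G347043, a hit of ATAF2, had 662 and 677 CPM in the drought kernel against 18.9 and 19.2 CPM in the control kernel, a fold of 35.2 against 8.38 in the ear leaf and 5.94 in the ear. Another hit of ATAF2, GRMZM2G123667, had its largest fold in the ear (11.2), where controls held 4 counts in each library, and an effect smaller in kernels than in ears by 1.77 on the log2 scale (SE 0.52, edgeR adjusted p = 0.0023). HB128 (GRMZM2G041462), a homeobox gene and hit of the ABA-responsive ATHB-7, had the largest excess of the control kernel over the control ear: 33.6 and 31.4 CPM in the control kernel against 0.638 and 1.03 CPM in the control ear (log2 difference 5.35, SE 0.45, edgeR adjusted p = 1.8e-16). Of 26 measured genes with a NAC name, 3 were members. Of the 20 with a WRKY name, the 33 with a bZIP name and the 34 with an EREB name, none was. Of all genes, 0.54% were members, so that a list of this size without one says little. The lists go by name and miss genes. The members GRMZM2G479760, a hit of the bZIP factor ABF2, and GRMZM2G123667 are in none of them. The EREB list holds dbf2 and not the member dbf1 (GRMZM2G061487).

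The 20 carbohydrate and osmolyte members took the largest share of counts of any annotated role in the kernel and the ear leaf, 3.10% and 3.08% of the drought kernel against 0.159% and 0.140% of the control kernel. They took 1.91% and 1.92% of the drought ear leaf against 0.180% and 0.187% of the control ear leaf. In the ear they took 0.194% and 0.193% under drought and 0.036% and 0.037% in controls, less than the chaperones and heat shock factors (0.292% and 0.286% under drought, 0.077% and 0.076% in controls). Most of the share in the kernel and the ear leaf came from AGA1 (GRMZM2G340656), whose best hit is SIP2, a raffinose-hydrolysing alpha-galactosidase. It had 26041 and 25715 CPM in the drought kernel against 1097 and 934 CPM in the control kernel. It had 14301 and 14432 CPM in the drought ear leaf against 575 and 605 CPM in the control ear leaf, and 830.2 and 828 CPM in the drought ear against 77.7 and 83.2 CPM in the control ear. Per length it was also the most abundant member in the drought kernel, at 9279 FPKM (fragments per kilobase of gene, scaled by depth), and in the drought ear leaf, at 5173 FPKM. gols2 (GRMZM5G872256), a galactinol synthase, the enzyme that opens the raffinose pathway, had 104 and 114 CPM in the drought kernel against 7.98 and 11.3 CPM in the control kernel, and 1920.1 and 1925 CPM in the drought ear leaf against 562 and 571 CPM in the control ear leaf. The drought kernel and the drought ear (27.1 and 22.2 CPM) remained below the control ear leaf, which exceeded the control ear by 7.81 (SE 0.18, edgeR adjusted p = 2.1e-28), the largest control difference of a member.

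Other genes of this role had unlike patterns. The hit of NADP-malic enzyme 1 (GRMZM2G118770), which is not the C4 gene me3, had 153 and 155 CPM in the drought ear leaf against 1.07 and 0.875 CPM in the control ear leaf, but 41.8 and 46.8 CPM in the drought kernel against 4.68 and 5.71 CPM in the control kernel. The difference of the effect in the kernel from that in the ear leaf was -3.61 (SE 0.46, edgeR adjusted p = 6.8e-09), the largest in that direction. The hit of malate synthase (GRMZM2G102183), an enzyme of the glyoxylate cycle, had 387 and 384 CPM in the drought ear leaf against 2.57 and 2.62 CPM in the control ear leaf, with folds of 148 in the ear leaf, 16.3 in the kernel and 11.3 in the ear. The hit of cytosolic enolase (GRMZM2G046679), a glycolytic enzyme, had 1385 and 1391 CPM in the drought kernel against 128 and 116 CPM in the control kernel, and folds of 2.59 in the ear leaf and 2.22 in the ear. The hit of aconitase 3 (GRMZM2G171707) had a lower level in the control kernel (0.762 and 1.90 CPM) than in the control ear (10.4 and 12.5 CPM), and its fold was 52.9 in the kernel and 3.93 in the ear. The hit of the polyol transporter PMT5 (GRMZM2G062156) had 22.3 and 17.2 CPM in the control kernel against 1.18 and 0.959 CPM in the control ear (log2 difference 4.19, SE 0.43, edgeR adjusted p = 1.5e-12). The hit of P5CS2 (GRMZM2G028535), the proline synthesis enzyme, had folds of 2.46 in the kernel, 2.72 in the ear leaf and 2.33 in the ear. TMM scaling lowers ear leaf folds and raises kernel folds, so that the order of folds this close depends on the scaling. sus2 (GRMZM2G318780), a sucrose synthase, had 131 and 140 CPM in the drought ear against 8.36 and 8.32 CPM in the control ear, and 205 and 202 CPM in the drought ear leaf against 69.0 and 88.7 CPM in the control ear leaf. Its listed length was 2200 and 2175 bases in the drought ear against 1647 and 1590 bases in the control ear. CPM is not scaled by length, so that its fold in the ear is smaller per length.

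Of the 6 members tied to ethylene or gibberellin, the hit of EGY3 (GRMZM2G049349), a chloroplast protease homologue, had widely different control levels: 163 and 154 CPM in the control ear leaf, 2.48 and 1.33 CPM in the control kernel and 1.70 and 1.53 CPM in the control ear. The control kernel differed from the control ear leaf by -7.22 (SE 0.28, edgeR adjusted p = 7.4e-25). Under drought it had 639 and 634 CPM in the ear leaf, 131 and 126 CPM in the kernel and 20.5 and 17 CPM in the ear. The ear leaf was highest in both conditions, the control kernel and the control ear overlapped, and the fold was 67.7 in kernels and 4.02 in ear leaves. A gibberellin-regulated family gene (GRMZM2G150688) was the most abundant member per length in the drought ear, at 757 FPKM against 288 FPKM in the control ear, and was lower in the control ear leaf than in the control ear by 3.83 on the log2 scale (SE 0.16, edgeR adjusted p = 2.0e-20).

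The 90 members without an annotation had median folds of log2 3.05 in the kernel, 2.10 in the ear leaf and 1.98 in the ear, and 63 of them had a larger effect and 8 a smaller one in kernels than in ear leaves. Over all 186 members these counts were 128 and 17, and over all tested genes the shares were 25.5% and 20.3%. AC195596.3 had 343 and 333 CPM in the drought kernel against 0.762 and 0.761 CPM in the control kernel (4 counts in each control library), but 9.18 and 7.42 CPM in the drought ear against 1.23 and 2.68 CPM in the control ear. Its effect was larger in kernels than in ears by 7.0 (SE 0.54, edgeR adjusted p = 3.9e-11). mtl2 (GRMZM2G402564) had 339 and 375 CPM in the drought kernel against 1.14 and 0.571 CPM in the control kernel, and 63.7 and 66.4 CPM in the drought ear against 5.85 and 5.94 CPM in the control ear. GRMZM2G123896 had 5063 and 5165 CPM in the drought kernel against 189 and 165 CPM in the control kernel, and only 379 and 373 CPM in the drought ear leaf against 178 and 171 CPM in the control ear leaf. GRMZM5G853245, in contrast, had similar folds by library sums, 2.80 in the kernel, 2.96 in the ear leaf and 3.30 in the ear, whose order depends on the scaling. Its control levels were 122 and 101 CPM in the kernel, 2.22 and 2.38 CPM in the ear leaf and 106 and 114 CPM in the ear. GRMZM2G169121 was likewise lowest in the control ear leaf, at 1 and 2 counts, against 14.3 and 14.1 CPM in the control kernel. GRMZM5G806182 was among the most abundant members per length in the drought ear leaf, at 1629 FPKM against 369 FPKM in the control ear leaf. GRMZM2G157982 had 9.77 and 13.9 CPM in the drought ear against 0 counts in both control ear libraries, at least 20.7-fold higher against 3 counts per library, and it was at or below 3 counts in every other control library.

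By the criteria of the study in the edgeR model, 183 members were called higher in ears, 162 in ear leaves and 186 in kernels, against 3.94%, 7.13% and 13.6% of all tested genes. None was called lower, against 3.28%, 9.19% and 13.5% of all tested genes. Since the rule used the same contrasts, these counts only compare 2 ways to choose genes. In all 3 organs 216 genes were called higher, of which 159 were members and 57 were not. Of the 27 members that were not, 24 missed the criteria in the ear leaf and 3 in the ear.

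Position, length and transcript number were no terms of the rule. Its limit of 5 CPM is not scaled by length, however, so that longer genes pass it more easily. With FPKM in place of CPM, the rule chose 179 genes, of which 164 were members. Among the 136 members found in the RefSeq table, chromosomes 1 to 10 held between 10 and 22 each. The median length of a member was 1539 bases, against 1438 bases for all genes and 1746 bases for the 13070 genes with at least 5 CPM in every drought library. A single transcript was listed for 56.5% of members, 62.6% of all genes and 39.7% of those 13070 genes.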

How the data were processed

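RNA was enriched with oligo(dT), sequenced on an Illumina instrument, and the filtered reads were aligned to reference sequences by the authors. The aligner, counting program, build and annotation are not given in the sources used here. The deposited values are expected counts, which divide reads shared between genes and are not normalised, and FPKM, which the authors scaled by gene length and library. Close copies (PP2C, small heat shock protein, LEA, sucrose synthase and NAC genes) are therefore uncertain. Genes missing from a library were taken as 0.

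CPM used plain sums of expected counts. Members were chosen at a minimum of 5 CPM and 2 times the higher control value. The members and lists were chosen with earlier results of these data known, and the families by RefSeq name after the files were seen. For tests, expected counts were rounded, genes with low counts were removed (filterByExpr, 26090 left), and edgeR 4.0.16 in R 4.3.3 fitted the quasi-likelihood model to 6 group means with TMM factors, without a replicate term, and Benjamini-Hochberg adjustment over all tested genes. Calls were made at an adjusted p below 0.001 with a log2 fold change of 1 or more in size, as in the study, or, for differences of the drought effect between organs, an adjusted p under 0.05. Bounds used 3 counts per library. Scripts were tested on simulated data. DESeq2 1.42.0, library sizes without TMM, no filter, a replicate term, each library left out, and other limits of the rule were the alternatives.

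With 2 libraries of pooled plants per group, p-values measure the spread between pools only. Whether the ear leaf and kernel libraries came from the same plants is not stated. The edgeR biological coefficient of variation reached 0.109 for control ear leaves and 0.0903 for control kernels, and was 0.0185 to 0.0307 for other groups. Members described in the text were those with the 3 largest folds (lower drought over higher control value) or the 3 highest drought FPKM in an organ, the 2 largest called differences in each direction between organs, in drought effect or control level, examples from the role lists, and the 3 genes on each side of the threshold. Names came from the RefSeq table of Zm-B73-REFERENCE-NAM-5.0, which held 136 of the members, and from the annotation of the study's tables. Promoter and protein sequences and gene descriptions were not used here.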

Additional observations from a re-analysis of the deposited data

Results flagged for a closer look

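For 9 named members the drought effect differed between organs by the interaction test itself (edgeR quasi-likelihood, Benjamini-Hochberg adjusted over all tested genes). The values given are log2 differences. These members were named for the largest called differences, so that passing the test was set by the choice. The test also uses the drought and control values that chose the members. For the kernel against the ear leaf, the differences were 6.95 for GRMZM2G031033, 6.65 for AC195596.3, -3.61 for the NADP-malic enzyme hit GRMZM2G118770 and -3.40 for the beta-carotene hydroxylase hit GRMZM2G382534. For the kernel against the ear, they were 6.21 for the low temperature and salt responsive gene GRMZM2G179462, -1.77 for the ATAF2 hit GRMZM2G123667 and -1.69 for the EDL3 hit GRMZM2G073324. For the ear leaf against the ear, they were -5.15 for the HSFC1 hit GRMZM2G105348 and -5.66 for GRMZM2G157982. Some of the 9 were also named for another pair of organs. AC195596.3 differed by 7.0 for the kernel against the ear. For the ear leaf against the ear, GRMZM2G118770 differed by 4.36 and GRMZM2G179462 by 4.34. The value of GRMZM2G157982 rests on control ear libraries with 0 counts, depends on the prior count and is no bound. Several of the others rest on control libraries with few counts: the control ear leaf held 5.82 and 3 expected counts of GRMZM2G118770, and the control ear 4 and 4 of GRMZM2G123667.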

How the results depend on the processing

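The number of members was 387 at a fold of 1.5 and 87 at a fold of 3, against 186, and between 186 and 208 with 1 library left out. The rule takes the lower drought and the higher control value, so that leaving out a library can only add members. With TMM factors in the rule the number of members was 142, of which 135 were shared. The median log2 fold in the ear leaf was 1.98 with TMM factors, against 2.31. Without TMM factors, members with a smaller effect in kernels than in ear leaves were 31, members higher and lower in the control kernel than in the control ear leaf were 56 and 53, and members lower in the control ear leaf than in the control ear were 36. With 1 library left out, members with a smaller effect in kernels than in ears were 6 to 10, members higher in the control kernel than in the control ear leaf 22 to 34, and members lower in the control ear leaf than in the control ear 10 to 16. Beyond the limits of the rule and the scaling, whose construction sets these changes, the cause was not tested. All 240 alternative values of the 24 named organ differences kept their direction and their side of the threshold. These 24 were chosen as the largest among the called differences, so that their staying called says little about smaller differences. Of 240 other alternative values of the main results, 228 stayed within the limit set for them and 12, those above, did not. The limit was wide. The 142 members with TMM factors in the rule, against 186, counted as within it. So did the 94 members with a larger effect in kernels than in ear leaves without TMM factors, against 128. Replicate numbers did not pair the libraries (correlation of same-numbered deviations 0.025 in ears, -0.019 in ear leaves and 0.028 in kernels). With a replicate block, 127 and 18 members had a larger and a smaller effect in kernels than in ear leaves, and 1906 genes were called in ears, 4254 in ear leaves and 7055 in kernels. At 3429339 to 5452714 counts per library, control levels near 1 CPM rest on a few counts.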
